A study of Mus musculus with 8 samples.

Results

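Polyadenylated RNA of mouse brain cortex was searched for the 10 core genes of the Hippo kinase pathway, and all 10 were among the 15693 genes of the deposited count table. They are the kinase genes Lats1, Lats2, Stk3 and Stk4, the adaptor genes Sav1, Mob1a, Mob1b and Nf2, and the co-activator genes Yap1 and Wwtr1, found by matching gene identifiers to symbols. The cortex came from 4 mice of the TDP-43Q331K line and 4 wild-type (WT) mice, all aged 4 months, with each library from 1 mouse's tissue as the labels describe it. The line models amyotrophic lateral sclerosis through the Q331K mutation of TDP-43, an RNA-binding protein encoded by Tardbp. The labels do not say whether the mutation sits in an added transgene or in the mouse gene, nor which promoter drives it. The WT substrain is given as C57BL/6J in the genotype field and as C57BL/6N in the series text, so that a difference of substrain between the groups cannot be told apart from the mutation. Sex is not given for any animal.

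The Hippo pathway is a kinase cascade that restrains growth. Its upstream kinases MST1 and MST2, encoded by Stk4 and Stk3, bind the scaffold SAV1 and phosphorylate the LATS kinases and their MOB1 partners, with the membrane-linked protein merlin, encoded by Nf2, promoting that step. Active LATS1 and LATS2 phosphorylate YAP and TAZ, encoded by Yap1 and Wwtr1, which are then held by 14-3-3 proteins in the cytoplasm or degraded. Unphosphorylated YAP and TAZ enter the nucleus and switch on genes with TEAD transcription factors. In the brain, YAP is known mainly from neural progenitors, astrocytes and ependymal cells, and is low in most mature neurons.

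Lats1 stood 1.82-fold higher in TDP-43Q331K cortex, and the other 9 genes of the set differed little between the genotypes. The set was chosen by the measured difference of Lats1 between these genotypes, so the values of the 10 genes are a description and carry no test. Of the 10, 1 passed edgeR's quasi-likelihood test with Benjamini-Hochberg adjustment across the table (threshold 0.05), as did 0.943% of all genes, with 0.344% higher and 0.599% lower, and nothing is read from that count. This was Lats1. The groups of Lats1 did not overlap, as in 9.68% of all genes (4.49% higher and 5.19% lower), whereas the groups of the other 9 genes overlapped. The log2 fold change (TDP-43Q331K over WT) was above 0 for 7 members and below 0 for 3. Its median was 0.050 for the 10, against 0.004 for all genes. Without Lats1 the median absolute log2 fold change was 0.051, and that of all genes was 0.085.

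Library depth was similar throughout, with totals between 45253021 and 58115164 counts, and the lowest count of any of the 10 genes in any library was 533. Tardbp itself stood at 162, 141, 167 and 149 CPM in TDP-43Q331K libraries, against 171, 198, 193 and 176 CPM in WT libraries. The groups did not overlap, and the log2 fold change was -0.25 (SE 0.07). EdgeR did not call it (adjusted p 0.106), and DESeq2 did (adjusted p 0.0117). CPM are counts scaled to the library size after TMM adjustment. Markers of cortical excitatory neurons, of interneurons and of glia were present in every library, as the tissue label implies. The 7 excitatory neuron markers summed to between 4484 and 4661 CPM in TDP-43Q331K libraries and between 4792 and 5464 CPM in WT libraries, without overlap. Camk2a and Slc17a7 made up most of these sums. Taken singly, each of the 7 markers overlapped between the groups. The log2 fold changes of these markers were negative in 7 of 7, with a median of -0.138. EdgeR and DESeq2 called 0 of them, and 3 were lower before adjustment. Of all genes, edgeR called 0.943% and DESeq2 4.47%, and 15.7% had an unadjusted edgeR p under 0.05. The 6 oligodendrocyte markers had positive log2 fold changes in 6 of 6, with sums that overlapped, and edgeR, DESeq2 and the unadjusted p gave 0 calls. The summed level of 13 thalamic and olfactory bulb markers ran from 176 to 274 CPM in TDP-43Q331K libraries and from 106 to 208 CPM in WT libraries, with 13 of 13 at a positive log2 fold change. Of these markers edgeR called 0, DESeq2 called 1, and 3 had unadjusted p below 0.05, beside the same shares of all genes. None of them was at 0 in every library, though levels varied between libraries. The olfactory bulb marker Eomes ran from 4.07 to 18.4 CPM in TDP-43Q331K libraries. In WT replicates 1 to 4 it stood at 0.182, 0.0862, 13.3 and 9.51 CPM. The thalamic marker Prkcd stood at 67.7 CPM in TDP-43Q331K replicate 4 and between 8.69 and 16.4 CPM in the other libraries. A fit with the mean of these markers as a single covariate was among the alternatives, and it does not separate the tissues. The 6 ependymal and choroid plexus markers summed to between 48.1 and 567 CPM in TDP-43Q331K libraries and between 20.8 and 398 CPM in WT libraries. Their log2 fold changes were positive in 6 of 6 (median 0.830). EdgeR and DESeq2 called 0, with 1 higher before adjustment. Of 6 microglial markers, 5 were negative, and DESeq2 called 1 (P2ry12, adjusted p 0.00744), which edgeR did not (adjusted p 0.0906). The 6 striatal markers summed to between 306 and 627 CPM in TDP-43Q331K libraries and between 233 and 704 CPM in WT libraries. In whole tissue, fewer cells of a type and less RNA per cell cannot be told apart.

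Lats1 (ENSMUSG00000040021) encodes the large tumour suppressor kinase that phosphorylates YAP and TAZ. It stood at 99.1, 81.0, 91.0 and 91.8 CPM in TDP-43Q331K replicates 1 to 4, against 49.1, 50.2, 46.9 and 53.4 CPM in WT replicates 1 to 4. Every TDP-43Q331K library was above every WT library, and the lowest TDP-43Q331K value was 1.52 times the highest WT value. The counts behind these levels were between 4448 and 5055 in TDP-43Q331K libraries and between 2419 and 2914 in WT libraries. The mean was 90.7 ± 7.43 CPM in TDP-43Q331K and 49.9 ± 2.71 CPM in WT (SD, n = 4 each), a log2 fold change of 0.86 (SE 0.06). With 1 library left out at a time, it lay between 0.81 and 0.91, and with the thalamic and olfactory markers as a covariate it was 0.89. Among the 54 genes called higher in TDP-43Q331K, 15 others had a larger log2 fold change. None of these 15 had a WT mean above 1.96 CPM. Both the fold and the WT level of Lats1 were matched by 0 other called genes, in CPM, which are not scaled by length. The set was chosen by this difference and both limits are Lats1's own values, so its place is a description only.

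Lats2 (ENSMUSG00000021959), the paralog of Lats1 and itself a known target of YAP and TAZ, did not share this difference. It stood at 10.7, 13.2, 15.9 and 16.3 CPM in TDP-43Q331K libraries, against 13.5, 12.9, 13.9 and 12.8 CPM in WT libraries. The WT values lay inside the spread of the TDP-43Q331K values, whose coefficient of variation of 18.7% was the largest of the 10 genes in either group. TDP-43Q331K replicate 1 held the lowest Lats2 level and the highest Lats1 level of its group. The mean was 14 ± 2.62 CPM in TDP-43Q331K and 13.3 ± 0.503 CPM in WT (SD, n = 4 each), a log2 fold change of 0.08 (SE 0.12). The value was 0.18 without TDP-43Q331K replicate 1 and turned its sign, at -0.00, without TDP-43Q331K replicate 4. In a short annotated Lats2 transcript, 547 bases (80.3% of it) were identical to Gm49361, an overlapping gene on the same strand. The longest Lats2 transcript has 5191 bases. Gm49361 is not in the count table, and how far it affects the Lats2 count was not tested. Any doubt about that count carries over to the ratio of Lats1 to Lats2.

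**Figure D1:**
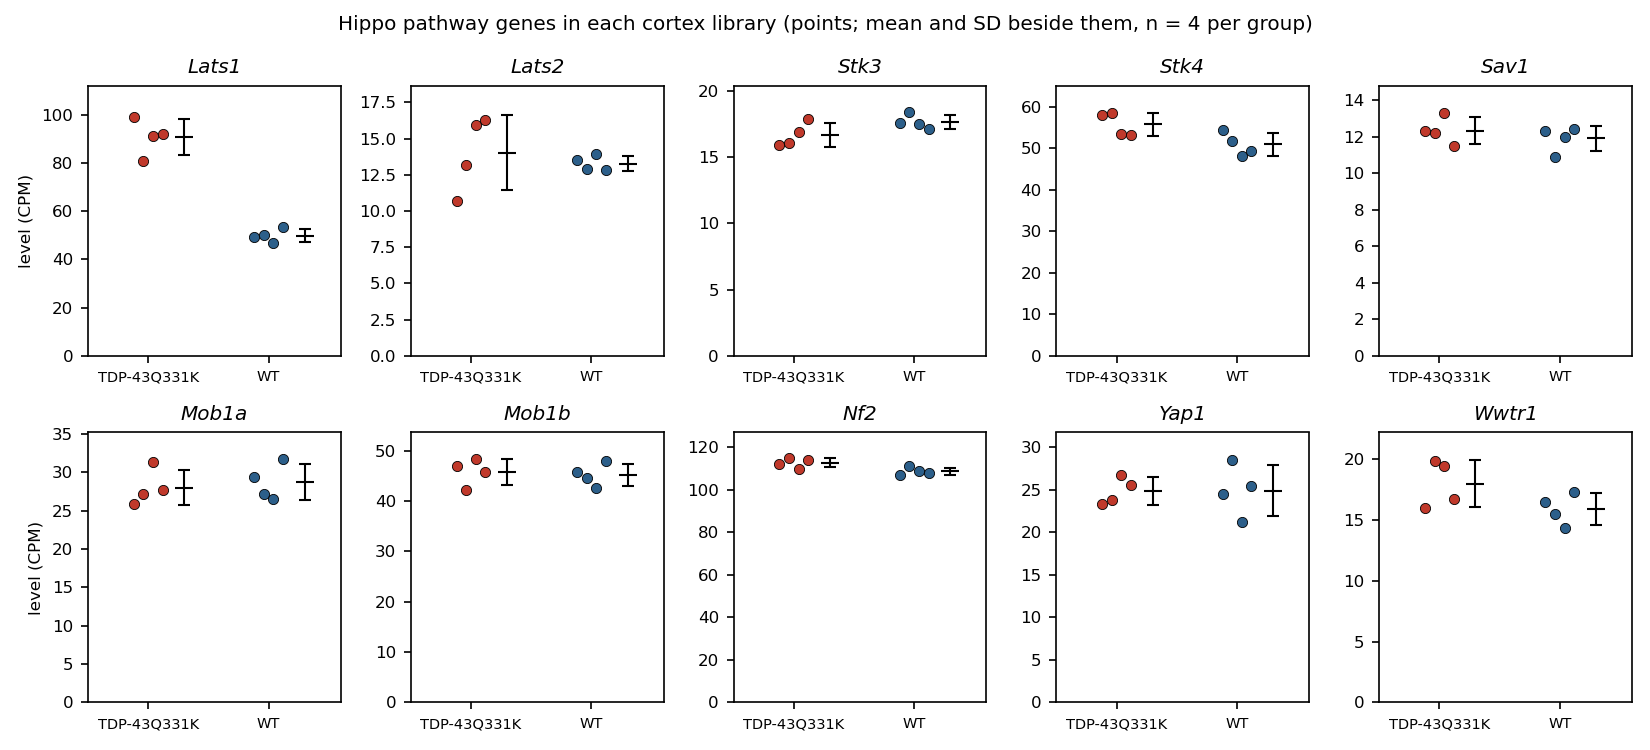
Level in CPM (vertical axes, from 0) of each of the 10 genes in the 4 TDP-43Q331K libraries (red points) and the 4 WT libraries (blue points), with the mean and SD beside each group. Lats1 lies between 81.0 and 99.1 CPM in TDP-43Q331K and between 46.9 and 53.4 CPM in WT, and in the other 9 panels the groups overlap.

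The 250 bases before the start of Lats1 and before the first of the 2 listed starts of Lats2 are shown so that the promoters of the gene that differed and of its paralog can be set side by side. The sequences are RefSeq's for the build GRCm38.p6, which is not the build the authors name, and capitals mark CG dinucleotides. The Lats1 window is chr10:7680959-7681208 on the plus strand, and the Lats2 window is chr14:57746124-57746373 on the minus strand.
Lats1: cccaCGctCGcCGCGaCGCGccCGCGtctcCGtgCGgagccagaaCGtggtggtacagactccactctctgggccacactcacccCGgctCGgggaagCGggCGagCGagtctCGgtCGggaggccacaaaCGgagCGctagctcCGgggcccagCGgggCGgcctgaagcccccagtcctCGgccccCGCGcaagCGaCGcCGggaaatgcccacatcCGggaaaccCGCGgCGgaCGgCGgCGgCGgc
Lats2: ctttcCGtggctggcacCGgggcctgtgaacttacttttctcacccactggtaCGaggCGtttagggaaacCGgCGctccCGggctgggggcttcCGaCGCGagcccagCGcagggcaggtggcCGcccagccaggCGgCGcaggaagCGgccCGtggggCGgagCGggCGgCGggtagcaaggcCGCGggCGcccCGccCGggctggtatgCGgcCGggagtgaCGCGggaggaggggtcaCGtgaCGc
The Lats1 window held 37 CG dinucleotides and this Lats2 window 31, against a median of 6 over 32851 promoters of the same length. The window before the second Lats2 start, not shown, held 4. The letters GGAATG, the core recognised by TEAD factors, or their reverse complement, were in none of these windows. On either strand they occurred in 12.6% of all promoters and in 5 of the 12 windows listed for 9 members, namely those of Sav1, Mob1a, Yap1 and the overlapping pair of Wwtr1. Stk3 had no entry.

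Nf2 (ENSMUSG00000009073), which encodes the upstream regulator merlin, had the highest level per length of the set, given further on. It stood at 112, 115, 110 and 114 CPM in TDP-43Q331K libraries, against 107, 111, 109 and 108 CPM in WT libraries. These ranges overlapped, and the coefficient of variation, 1.95% in TDP-43Q331K and 1.44% in WT, was the smallest of the 10 genes in each group. The log2 fold change was 0.05 (SE 0.04), from means of 113 ± 2.19 CPM in TDP-43Q331K and 109 ± 1.57 CPM in WT (SD, n = 4 each).

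Of the MST kinase genes, Stk4 had a positive and Stk3 a negative log2 fold change, and both overlapped between the groups. Stk4 (ENSMUSG00000018209, MST1) had 58, 58.5, 53.5 and 53.3 CPM in TDP-43Q331K libraries and 54.5, 51.9, 48.3 and 49.5 CPM in WT libraries. Only WT replicate 1 reached into the TDP-43Q331K range. Means were 55.8 ± 2.82 CPM in TDP-43Q331K and 51.1 ± 2.73 CPM in WT (SD, n = 4 each), a log2 fold change of 0.13 (SE 0.05) that was positive in all 20 fits, from 0.10 to 0.20. For Stk3 (ENSMUSG00000022329, MST2) the levels were 15.9, 16.1, 16.9 and 17.9 CPM in TDP-43Q331K libraries and 17.6, 18.4, 17.5 and 17.1 CPM in WT libraries. Its log2 fold change of -0.08 (SE 0.06) was negative in all 20 fits. Stk4 shares bases with Tomm34 on the opposite strand (log2 fold change -0.06, SE 0.04), and the sources used here do not give the strand setting of the counting. Gm11455, an annotated gene on the same strand as Stk4, also overlaps it and is not in the count table. How far these overlaps affect the Stk4 count was not tested.

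The groups of the other adaptor genes overlapped as well. Sav1 (ENSMUSG00000021067), the scaffold of the MST kinases, had 12.3, 12.2, 13.3 and 11.5 CPM in TDP-43Q331K libraries and 12.3, 10.9, 12 and 12.4 CPM in WT libraries, with a log2 fold change of 0.05 (SE 0.07). Its count is uncertain, since 1336 bases of a Sav1 transcript were identical to sequence of Atl1, which overlaps it on the opposite strand, reached 152 CPM and had a log2 fold change of -0.02. Mob1a (ENSMUSG00000043131) and Mob1b (ENSMUSG00000006262) encode the near-identical co-activators of LATS kinases. Mob1a ran from 25.9 to 31.3 CPM in TDP-43Q331K libraries and from 26.5 to 31.7 CPM in WT libraries, with a log2 fold change of -0.03 (SE 0.08). Mob1b ran from 42.2 to 48.4 CPM in TDP-43Q331K libraries and from 42.6 to 47.9 CPM in WT libraries, with a log2 fold change of 0.02 (SE 0.06). No match at 80% identity or more covering both 200 bases and 20% of a transcript linked them to each other, so shorter shared stretches may still split reads between them.

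The LATS substrates also overlapped between the genotypes. Yap1 (ENSMUSG00000053110) had 23.3, 23.8, 26.8 and 25.6 CPM in TDP-43Q331K libraries, against 24.5, 28.5, 21.2 and 25.4 CPM in WT libraries. WT held both the highest and the lowest of the 8 values. The mean was 24.9 ± 1.61 CPM in TDP-43Q331K and 24.9 ± 2.99 CPM in WT (SD, n = 4 each). Its log2 fold change of -0.001 (SE 0.09) ran from -0.07 to 0.12 over the 20 fits, the highest value coming with the thalamic and olfactory marker covariate. Wwtr1 (ENSMUSG00000027803), which encodes TAZ, had 16.0, 19.8, 19.4 and 16.7 CPM in TDP-43Q331K libraries, against 16.5, 15.5, 14.3 and 17.3 CPM in WT libraries. TDP-43Q331K replicates 2 and 3 were above every WT library, and replicates 1 and 4 lay within the WT range. The mean was 18.0 ± 1.90 CPM in TDP-43Q331K and 15.9 ± 1.30 CPM in WT (SD, n = 4 each), a log2 fold change of 0.17 (SE 0.09), next in size to that of Lats1.

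**Figure D2:**
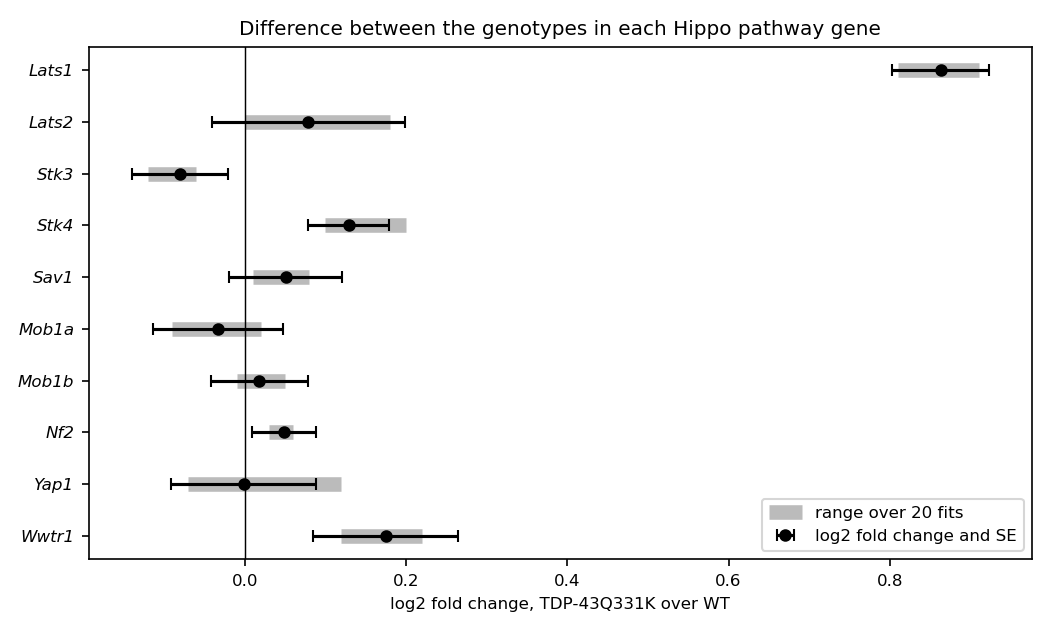
Log2 fold change of TDP-43Q331K over WT (horizontal axis) of each of the 10 genes, with its SE (black) and the range over 20 fits, the one reported and 19 with other settings or 1 library fewer (grey). Lats1 lies at 0.86, and the other 9 lie between -0.08 and 0.17.

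Per length of merged exons, the levels had the same order in both genotypes but for Lats1 and Stk4, which changed places. Nf2 was first, with 16.5 ± 0.321 CPM per kb in TDP-43Q331K and 15.9 ± 0.230 CPM per kb in WT (SD, n = 4 each). Lats1 was second in TDP-43Q331K at 12.4 ± 1.02 CPM per kb, above Stk4 at 9.53 ± 0.481, with no overlap of their libraries. In WT the order was reversed, with Stk4 at 8.71 ± 0.466 and Lats1 at 6.84 ± 0.371 CPM per kb, again with no overlap. Mob1a came next in both groups and overlapped Lats1 in WT, where it ran from 5.52 to 6.60 CPM per kb. Wwtr1, Mob1b, Stk3, Yap1, Sav1 and Lats2 followed in that order in both groups, between 1.90 and 3.76 CPM per kb. Neighbours in this tail overlapped, other than Wwtr1 and Mob1b in TDP-43Q331K and Sav1 and Lats2 in WT. With the longest transcript as the length, the first 4 places were the same and Wwtr1 stood behind Mob1b, Stk3 and Yap1, so the tail order depends on the length used.

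Between paralogs, the balance differed for the LATS pair, which restates the Lats1 difference by which the set was chosen. On the scale of CPM per kb of merged exon, the ratio of Lats1 to Lats2 was 8.88, 5.88, 5.48 and 5.38 in TDP-43Q331K libraries, against 3.48, 3.73, 3.23 and 3.97 in WT libraries. The groups did not overlap, and TDP-43Q331K replicate 1 stood above the rest of its group. The ratio of Stk4 to Stk3 was between 3.10 and 3.80 in TDP-43Q331K and between 2.87 and 3.24 in WT. Mob1b to Mob1a gave 0.523 ± 0.0391 in TDP-43Q331K and 0.504 ± 0.0176 in WT (SD, n = 4 each). Yap1 to Wwtr1 gave 0.721 ± 0.0737 in TDP-43Q331K and 0.809 ± 0.0918 in WT (SD, n = 4 each). These last 3 ratios overlapped between the groups.

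**Figure D3:**
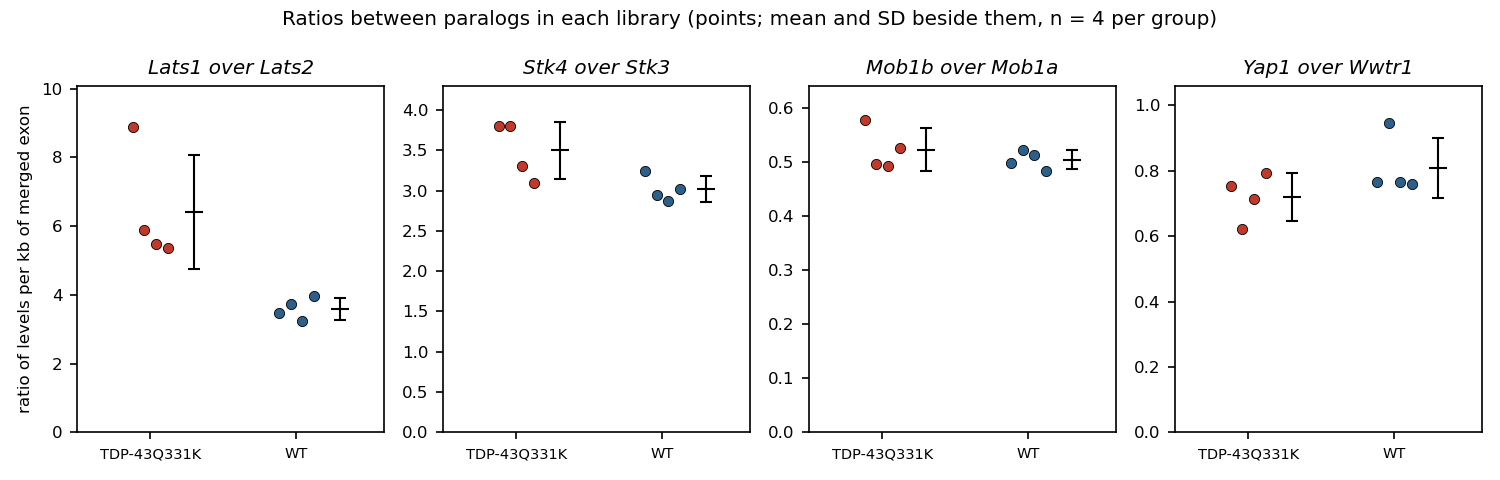
Ratio of the levels of paralogous genes, each in CPM per kb of merged exon (vertical axes, from 0), in the 4 TDP-43Q331K libraries (red) and the 4 WT libraries (blue), with mean and SD. Lats1 over Lats2 is at least 5.38 in TDP-43Q331K and at most 3.97 in WT, and the other 3 ratios overlap.

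The chromosomal neighbourhood of Lats1, which played no part in choosing it, held no gene past edgeR's test. Of the 10 measured genes on each side, 0 of 20 passed edgeR's all-gene test, where 0.943% of all genes did. At that share a count of 0 among 20 genes is unremarkable, and nothing is read from it. At an unadjusted p under 0.05, 3 were higher and 1 lower, where 15.7% of all genes reached that level. DESeq2 called 1 of the 20 (Pcmt1), against 4.47% of all genes, and limma-voom and limma-trend called 0. The nearest genes are Nup43, a nuclear pore gene, and Katna1, which encodes a microtubule-severing subunit. Nup43 had 3.86, 3.02, 3.88 and 3.18 CPM in TDP-43Q331K libraries, against 3.85, 3.6, 4.41 and 3.88 CPM in WT libraries (log2 fold change -0.18, SE 0.12, edgeR adjusted p 0.515). Katna1 had 8.26, 8.65, 8.04 and 8.12 CPM in TDP-43Q331K libraries, against 7.22, 8.31, 7.69 and 7.57 CPM in WT libraries (log2 fold change 0.10, SE 0.07, edgeR adjusted p 0.539). Both overlapped between the groups. Next to them, Ginm1 was at -0.07 (SE 0.08) and Pcmt1, a protein repair methyltransferase gene, at -0.18 (SE 0.04, edgeR adjusted p 0.0918). Pcmt1 was lower in all TDP-43Q331K libraries than in all WT libraries, and its adjusted p ran from 0.004 to 0.359 over 19 alternatives. The log2 fold changes of the 20 lay between -0.18 and 0.32. Among 54 measured neighbours of the other 9 members, edgeR called 0 and DESeq2 3, with 5 higher and 3 lower before adjustment, beside the same shares of all genes.

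**Figure D4:**
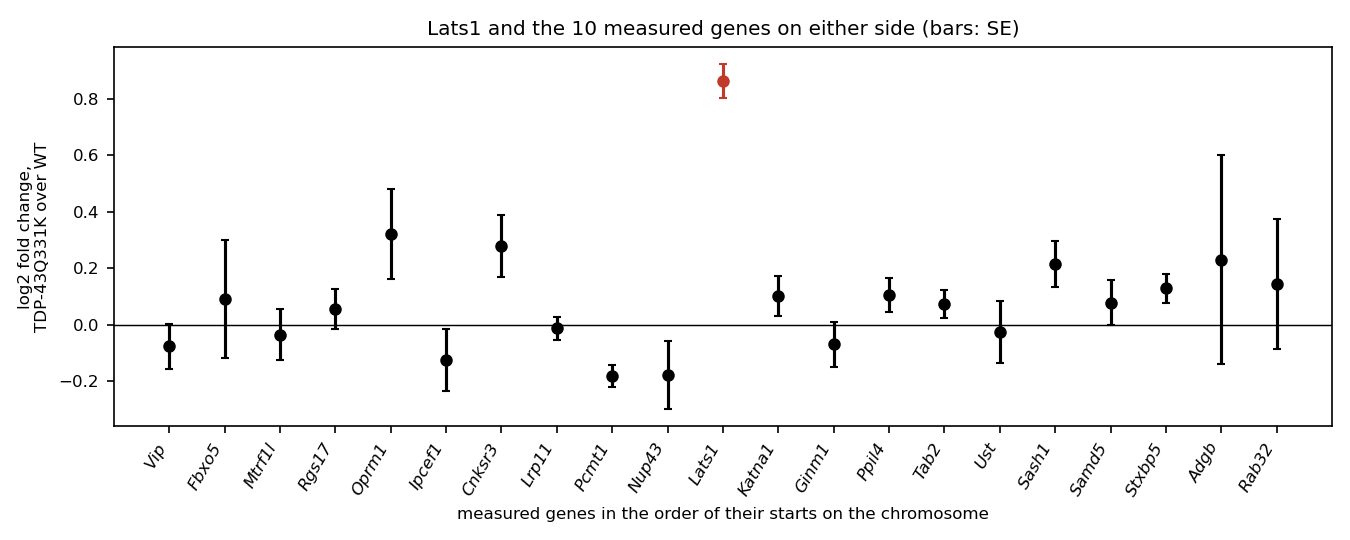
Log2 fold change of TDP-43Q331K over WT with SE (vertical axis) of Lats1 (red) and the 10 measured genes on either side of it (black), in the order of their starts. Lats1 lies at 0.86 and the 20 neighbours lie between -0.18 and 0.32.

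The rest of the pathway was covered by 8 lists with 77 genes outside the 10 members, of which 73 were measured. Sfn alone passed edgeR's all-gene test, 1 of 73, against 0.943% of all genes. At an unadjusted p under 0.05, 10 were higher and 6 lower, where 15.7% of all genes reached that level. DESeq2 called 8, against 4.47% of all genes by that test, while limma-voom and limma-trend each called Sfn and Ccn2. The median log2 fold change of the 73 was 0.009, and that of all genes 0.004. These shares of all genes also stand beside the counts of each list that follows.

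Upstream of the MST and LATS kinases, 0 of 16 kinase, scaffold and cadherin genes passed edgeR's test, 2 were higher and 1 lower before adjustment, and DESeq2 called 1 (Tnik). The median log2 fold change was -0.002. The smallest p values belonged to Tnik, a kinase of the MAP4K family, at -0.20 (SE 0.06), and Frmd6, a relative of merlin, at 0.28 (SE 0.09). Frmd6 had 53.4, 45.4, 52.7 and 46.7 CPM in TDP-43Q331K libraries, against 42.8, 34.2, 41.7 and 44.6 CPM in WT libraries, without overlap and with an edgeR adjusted p of 0.154. Taok1, which can phosphorylate MST kinases, was at 0.12 (SE 0.05).

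The NDR kinases are the closest relatives of the LATS kinases and also bind MOB1. EdgeR called 0 of the pair and DESeq2 1 (Stk38), and both were higher before adjustment. Of all genes, 4.47% passed by DESeq2 and 15.7% before adjustment, and nothing is read from counts in 2 genes. Stk38 had 63.9, 50.9, 62.8 and 61.9 CPM in TDP-43Q331K libraries, against 39.9, 50.3, 48.7 and 45.1 CPM in WT libraries, and the groups did not overlap. EdgeR gave 0.38 on the log2 scale (SE 0.09, adjusted p 0.0783), and over 19 alternatives the adjusted p ran from 0.00389 with DESeq2 to 0.427 with the marker covariate. It passed in 2 of them, with DESeq2 and without TDP-43Q331K replicate 2. Stk38l was at 0.18 (SE 0.07).

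STRIPAK, a phosphatase complex that dephosphorylates MST kinases, had 0 of 13 genes past edgeR's test and 0 past DESeq2's, 1 higher before adjustment, and a median log2 fold change of 0.003. Its striatin genes Strn3 and Strn4 were at 0.13 (SE 0.04) and -0.12 (SE 0.05), the last at -0.06 with the marker covariate, and Ppp2r1a, the scaffold subunit of the phosphatase, was at -0.08 (SE 0.05). Among the angiomotins, which bind YAP, the LIM adaptors, which inhibit LATS kinases, and Ptpn14, edgeR called 0 of 7 and DESeq2 1 (Amotl1), with 1 higher before adjustment. Amotl1 had 38.9, 42.6, 34.9 and 59.9 CPM in TDP-43Q331K libraries, against 28.4, 32.4, 29.8 and 36.5 CPM in WT libraries. The groups overlapped, and TDP-43Q331K replicate 4 was the highest. It was also the highest for the summed ependymal and choroid plexus markers (567 CPM) and the summed thalamic and olfactory markers (274 CPM). WT replicate 1 had the next highest sum of the ependymal and choroid plexus markers (398 CPM) and the lowest Amotl1 level of the 8 libraries. Amotl1 was at 0.47 on the log2 scale (SE 0.15, edgeR adjusted p 0.166), or 0.37 with the thalamic and olfactory marker covariate (edgeR adjusted p 0.602). The source of its difference was not tested. Limd1 was at 0.14 (SE 0.07) and Amot at 0.15 (SE 0.08), or 0.28 with the same covariate. Of the ubiquitin ligase genes, which act on LATS1, YAP or TAZ, edgeR and DESeq2 called 0 of 5, with 1 higher before adjustment, and Itch, whose product degrades LATS1, was at 0.10 (SE 0.04), Wwp1 at 0.10 (SE 0.07), or -0.01 with the marker covariate, and Fbxw11 at 0.03 (SE 0.04).

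The 14-3-3 genes, whose products retain phosphorylated YAP, held the only edgeR call outside the members. Sfn, which encodes 14-3-3 sigma, had 2.80, 2.79, 2.71 and 2.49 CPM in TDP-43Q331K libraries, against 1.61, 1.33, 1.53 and 1.46 CPM in WT libraries. It rose by 0.86 on the log2 scale (SE 0.12, edgeR adjusted p 0.0105), passing in 17 of 19 alternatives, with adjusted p from 1.95e-05 to 0.177. The marker covariate (adjusted p 0.177) and the replicate number as a block (0.102) ended the call, with log2 fold changes of 0.85 and 0.87 in those fits, where the calls among all genes numbered 12 and 14, against 148. The other 6 members of the family, each with a negative log2 fold change, did not pass edgeR's test. DESeq2 called 2 of the 7 genes (Ywhah and Sfn), and 1 was higher and 2 lower before adjustment. Ywhah, an abundant neuronal form, had 627, 636, 587 and 635 CPM in TDP-43Q331K libraries, against 723, 680, 749 and 690 CPM in WT libraries. These groups were apart, at -0.19 on the log2 scale (SE 0.05, edgeR adjusted p 0.0951, DESeq2 adjusted p 0.00313). Ywhag was at -0.10 (SE 0.04).

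At the output of the pathway, no TEAD factor or target gene passed edgeR's test, and DESeq2 called 3 target genes. Of 5 measured TEAD and Vgll genes, edgeR and DESeq2 called 0 and 0 were below 0.05 before adjustment, and Tead4, Vgll1 and Vgll2 were not in the table. Vgll3 was at 0.38 (SE 0.26), or 0.65 with the marker covariate, Tead3 at 0.12 (SE 0.15) and Vgll4 at -0.06 (SE 0.09). Of the 20 measured genes of a list of YAP and TAZ targets, edgeR called 0, with 10 positive, 10 negative and a median log2 fold change of 0.003. At an unadjusted p under 0.05, 2 were higher and 3 lower, where 15.7% of all genes reached that level. The 3 that DESeq2 called were Ccn2, Fjx1 and Dock5, against 4.47% of all genes by that test. Ccn2, a secreted matrix protein gene that is also a marker of the deepest cortical layer, had 11.6, 15.1, 15.7 and 11.7 CPM in TDP-43Q331K libraries, against 19.6, 19.0, 19.0 and 18.6 CPM in WT libraries. All its WT values were above all TDP-43Q331K values, at -0.49 on the log2 scale (SE 0.10, edgeR adjusted p 0.0568). Over 19 alternatives that adjusted p ran from 0.000464 to 0.377, and 5 passed. Fjx1, a secreted regulator of planar polarity, was at -0.25 (SE 0.05, edgeR adjusted p 0.0676, DESeq2 adjusted p 0.00245). Dock5, an exchange factor for Rac, was at 0.31 (SE 0.08, edgeR adjusted p 0.114, DESeq2 adjusted p 0.0311).

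**Figure D5:**
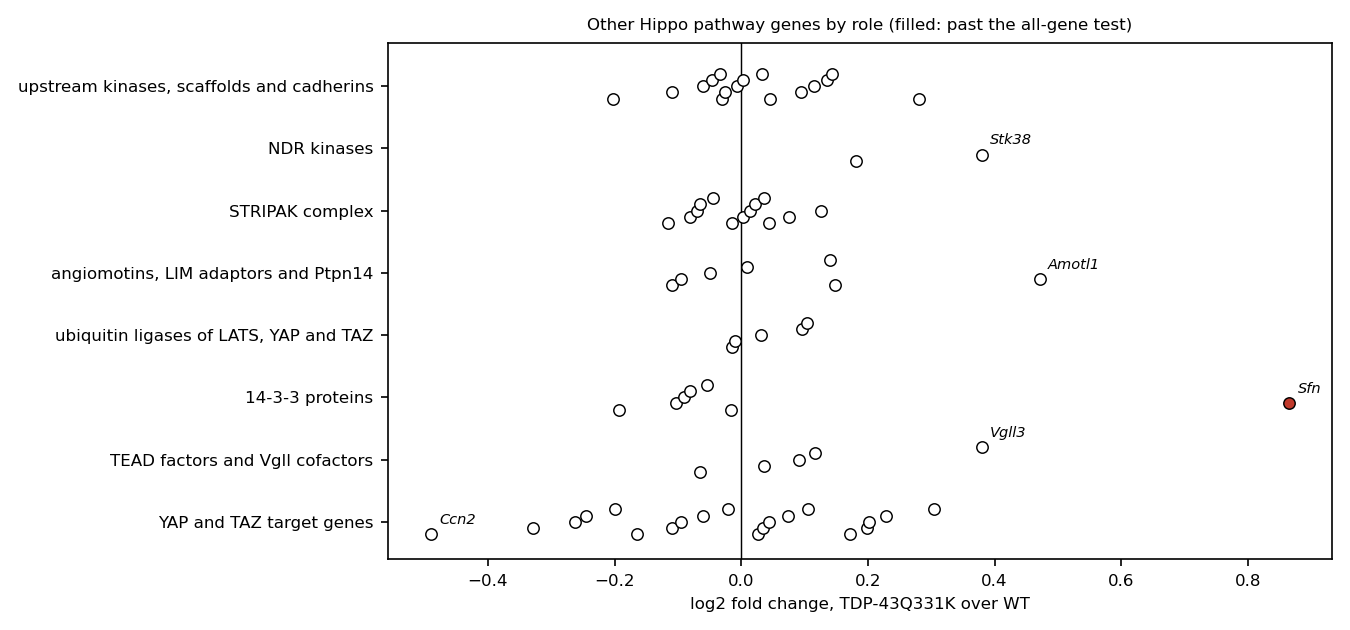
Log2 fold change of TDP-43Q331K over WT (horizontal axis) of the 73 measured pathway genes outside the 10 members, by list, where Amotl2 and Ptpn14 stand in 2 lists. Sfn, at 0.86, is filled as the only gene past edgeR's all-gene test, and open points did not pass.

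Of the 5 genes with the pattern most like that of Lats1 across the 8 libraries, Sfn alone was in the pathway lists. The set was chosen by the Lats1 difference, so genes with a similar difference between the genotypes come nearest by construction. The order is a description. Likeness was the root mean square difference of log2 CPM, each gene centred on its own mean over the 8 libraries, among 15293 genes with a mean of at least 1 CPM. The 5 closest were Col2a1 at 0.122, Fndc8 at 0.127, Sfn at 0.137, Palm3 at 0.15 and Noxred1 at 0.151, where a gene with no variation at all would be at 0.439. The WT means of these 5 lay between 1.32 and 2.79 CPM, values not scaled by length. Col2a1, a cartilage collagen gene, had 3.48, 2.99, 3.46 and 3.82 CPM in TDP-43Q331K libraries, against 1.61, 1.81, 1.43 and 1.92 CPM in WT libraries. Of the members, Wwtr1 at 0.382 (place 1714) and Stk4 at 0.383 (place 1762) came nearest to Lats1. Stk3 at 0.482 (place 10217) was farthest.

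TDP-43 binds UG-rich RNA, so alternating GT runs were counted in the longest annotated transcript of each member, without introns. The longest run in Lats1 was 7 bases, equal to the median over 13832 protein-coding genes. Yap1 and Mob1b each held a run of 30 bases, a length reached by 3.87% of genes, and Mob1a held 12. Lats2 held 11 bases, Nf2 held 8, Stk4 and Sav1 held 7, and Stk3 and Wwtr1 held 6. A run is a match of letters, not evidence of binding, and introns were not searched. Whether TDP-43 binds any of these transcripts was not tested.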

How the data were processed

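Per the labels' protocols, flash-frozen cortex of 4 TDP-43Q331K and 4 WT mice gave oligo(dT)-captured RNA for a stranded Illumina kit. Raw counts per gene were deposited with a second table of these counts over the TMM-scaled library size (normalised signal), per the file headers. STAR 2.7.6a, GRCm39, R 4.3.1 and edgeR 4.4.2 appear in the submitters' processing notes, with no role stated. The sources used here give no counting program, strand setting or annotation. Columns were matched to samples by library name, with 0 unmatched, and the labels put all libraries in batch 1.

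Symbols, lengths and gene order came by identifier from GENCODE M21 (GRCm38), which named 15470 genes. In R 4.3.3, edgeR 4.0.16 fitted the counts with genotype alone (TMM, filterByExpr, which removed 0 genes, two-sided quasi-likelihood test, 6 residual degrees of freedom), with Benjamini-Hochberg adjustment over all genes. P-values measure the spread between these libraries, and no pair of libraries was a copy (chi-square per degree of freedom at least 14.6). The method was tested on simulated data first. There edgeR recovered 22.4% of 1.25-fold, 64.2% of 1.5-fold and 89.4% of 2-fold changes, so a gene that did not pass may still differ. The members, lists and tests were chosen with earlier results of these data known. Named pathway genes are those past the test and the 3 with the smallest p of each list. Named neighbours of Lats1 are the 2 nearest on each side.

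The alternatives comprised other scalings (RLE, upper quartile, none), other filters (no filter, over 1 CPM in 4 libraries), DESeq2 1.42.0, limma 3.58.1 (voom, or trend on log2 of the deposited signal plus 1), a replicate block, Xist as a covariate, thalamic and olfactory markers as a covariate, a looser threshold of 0.10, and leaving out single libraries. Transcripts were compared with blastn 2.17.0.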

Additional observations from a re-analysis of the deposited data

Results flagged for a closer look

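Among 84 pairs of a named gene and a group, 4 had a library whose gap to its nearest neighbour was, as a share of the group's range, past the critical value of Dixon's test for 4 samples, and chance gives about 1 such group in 20. None was in the 10 members. Stk38 in TDP-43Q331K replicate 2 stood at 50.9 CPM, with the rest of its group between 61.9 and 63.9 CPM. Wwp1 in TDP-43Q331K replicate 4 stood at 60.6 CPM, with the rest between 70.2 and 71.1 CPM. Tead3 in TDP-43Q331K replicate 3 stood at 3.17 CPM, with the rest between 2.17 and 2.23 CPM. Strn4 in WT replicate 1 stood at 260 CPM, with the rest between 226 and 229 CPM.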

How the results depend on the processing

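The log2 fold change of Lats1 lay between 0.81 and 0.91 over 19 alternatives, given as a description. The log2 fold changes of the other 9 members stayed within 1 SD of the libraries in all 171 values. Leaving out 1 of 4 libraries can hardly move a value that far, so nothing is read from this count. The values of Lats2, Mob1a, Mob1b and Yap1 did not keep their sign in every fit. The number of genes called was 148, and 701 with DESeq2, 396 at a threshold of 0.10, 14 with the replicate block and 12 with the thalamic and olfactory marker covariate. It ran from 51 (without WT replicate 1) to 129 with 1 library left out. Of the pathway genes outside the members, 1 was called, and 8 with DESeq2, 5 at a threshold of 0.10, 2 with upper quartile factors, limma-voom or limma-trend, 0 with the replicate block and 0 with the marker covariate. With 1 library left out it was 1 to 2. Of the neighbours of Lats1, 0 were called, and 1 with DESeq2 and 1 at a threshold of 0.10. The cause of these changes was not tested. Replicate numbers come from titles and no label ties them to a litter or day. Deviations of same-numbered libraries correlated at -0.438, 0.08, -0.113 and 0.064, so the numbers were not taken to pair libraries. Another scaling moved the median log2 fold change of all genes by at most 0.019 from 0.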
